A study of Mus musculus with 12 samples.

Results

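The genes described here encode the proteins of the cytosolic ribosome. They were taken as every protein-coding gene whose mouse symbol has the form Rpl or Rps, a number, and at most 1 trailing letter a or x. The rule leaves out pseudogenes, the S6 kinases, and proteins of the ribosome that carry other kinds of names, such as Rplp0 and Rpsa. It gave 72 genes of the 55487 in the count table, of which 43 encode proteins of the large subunit and 29 proteins of the small subunit, and all 72 passed the filter on low counts. The rule uses no measured value, but it was chosen with earlier results of these data known.

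RNA was sequenced from 12 libraries of C57BL/6 mice of either sex, 6 to 10 weeks old, in 4 groups of 3. SI tissue and LI tissue are crypts freshly isolated from the small intestine (jejunum) and the large intestine, with 1 mouse per library. SI monolayers and LI monolayers are crypts seeded on Matrigel and grown for 24 h in control medium, with pooled wells per library. After 4 h of seeding in a medium with CHIR-99021, EGF, LDN-193189, R-spondin-1, Wnt3a and Y-27632, the monolayers of both regions received Wnt3a, EGF, Noggin and R-spondin-1, which the tissue never did. EDTA alone freed the crypts of the SI, while those of the LI were first digested with collagenase D, dispase and DNase, so that region and isolation cannot be told apart. How many mice contributed to the pooled wells is not given in the sources used here, so that p-values measure the spread between these libraries. Each gene had 1 estimate of that spread for all 4 groups, single mice and pooled wells alike. The members' percent of library counts had SDs of 0.515 and 0.341 in SI and LI tissue, against 0.070 and 0.087 in SI and LI monolayers. P-values between tissues are thus not set against the spread of tissue libraries alone. For culture the large intestines came from the mice that gave the small intestines, so libraries of the 2 regions may share animals. No label ties them, and the tests treat them as independent.

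Each cytosolic ribosome joins a large subunit, which forms peptide bonds, to a small subunit, which reads the messenger RNA. The ribosomal proteins are needed in equal numbers within a ribosome, except for the stalk proteins, and their transcripts are among the most abundant of dividing cells. In mammals these transcripts usually begin with a C followed by an unbroken run of C and T, the 5′ terminal oligopyrimidine (TOP) motif, through which mTORC1 and the RNA-binding protein Larp1 control their translation. The intestinal crypt holds the stem and dividing cells of the epithelium, a tissue with a high demand for new ribosomes.

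Because the TOP motif lies at the transcription start, the sequences around the starts of 8 members are shown, of which 4 rise and 4 fall in at least 1 comparison reported below. Of the 72 members, 53 matched an entry of the RefSeq promoter table (GRCm38.p6), and Rps14, Rpl7 and Rpl29, which also carry results below, had no entry. Each sequence runs 5′ to 3′ on the strand of the gene and holds the 40 bases before the annotated start and 20 bases from it. Capitals mark the longest run that begins with C and continues in C or T, among runs that begin within 10 bases of the start.
Rps6: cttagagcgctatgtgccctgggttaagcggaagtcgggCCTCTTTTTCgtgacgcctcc
Rpl38: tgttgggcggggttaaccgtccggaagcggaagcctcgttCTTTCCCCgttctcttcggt
Rpl6: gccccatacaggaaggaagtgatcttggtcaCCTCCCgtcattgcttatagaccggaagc
Rps2: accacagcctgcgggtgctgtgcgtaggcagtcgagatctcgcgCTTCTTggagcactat
Rps27: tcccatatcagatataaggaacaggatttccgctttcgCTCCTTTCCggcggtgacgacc
Rps21: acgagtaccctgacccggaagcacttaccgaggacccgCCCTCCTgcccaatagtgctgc
Rps7: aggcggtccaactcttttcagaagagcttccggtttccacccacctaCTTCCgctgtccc
Rpl9: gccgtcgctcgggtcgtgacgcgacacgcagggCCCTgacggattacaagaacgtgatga

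The windows are Rps6 at chr4:86857348-86857407 (- strand), Rpl38 at chr11:114668540-114668599 (+ strand), Rpl6 at chr5:121204461-121204520 (+ strand), Rps2 at chr17:24720023-24720082 (+ strand), Rps27 at chr3:90213629-90213688 (- strand), Rps21 at chr2:180257339-180257398 (+ strand), Rps7 at chr12:28635934-28635993 (- strand) and Rpl9 at chr5:65391412-65391471 (- strand). In Rpl38 the run began at the annotated start itself and was 8 bases long. In Rps6 and Rps27 it began 1 and 2 bases upstream, with lengths of 10 and 9 bases. Rpl9 had a run of 4 bases and Rps7 a run of 5.

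Over the members with a promoter entry, 11 of 53 (20.8%) began with C followed by at least 4 further C or T exactly at the annotated start, against 2.51% of the 27025 promoters of the table. When the run was allowed to begin within 10 bases of the start, runs of 5 bases or more stood in 28 members (52.8%) and in 30.7% of all promoters, and runs of 8 bases or more in 19 members (35.8%) and 8.02% of all promoters. Annotated starts can differ from the true first base. The start used lay 153 bases from that of the principal GENCODE transcript for Rpl12 and 127 for Rpl22, but 0 for Rpl11 and Rpl18. A search within 10 bases can thus miss a run at the true start. Of 5 further motifs searched on both strands of the whole window, from 250 bases before to 50 bases after the start, the ETS-type motif CCGGAAG stood in 35.8% of the members and 9.18% of all promoters. The GC box GGGCGG stood in 56.6% and 36.1%, and AAGATGG, a core of the YY1 motif, in 15.1% and 6.49%. The E-box CACGTG, a motif bound by Myc, stood in 9.43% of the members and 7.23% of all promoters, and TATAAA in 7.55% and 14.2%.

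The members took 4.49%, 4.19% and 5.20% of all counts in SI tissue, by library, and 5.83%, 5.69% and 5.78% in SI monolayers. They took 5.18%, 5.36% and 5.84% in LI tissue and 4.79%, 4.65% and 4.81% in LI monolayers. The share was thus higher in monolayers than in tissue in the SI and lower in the LI, with no overlap of libraries in either region. With mitochondrially encoded genes left out of the totals, the SI shares were 4.46% to 5.44% (tissue) and 5.72% to 5.86% (monolayers), and the LI shares 5.32% to 5.98% (tissue) and 4.68% to 4.84% (monolayers). In these bulk libraries, fewer cells of a kind and less RNA per cell cannot be told apart. Replicate 2 of SI tissue held the lowest and replicate 3 of LI tissue the highest share of its group.

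The balance between the subunits moved the same way in both regions. The summed counts of the large subunit members were 1.27, 1.28 and 1.25 times those of the small subunit members in SI tissue, and 1.36, 1.37 and 1.37 times in SI monolayers. The ratio was 1.25, 1.23 and 1.22 in LI tissue and 1.41, 1.42 and 1.40 in LI monolayers. Both monolayer groups lay above both tissue groups, without overlap. Rps14 alone took 7.998% to 8.60% of the small subunit counts in SI tissue and 9.94% to 10.2% in LI tissue, but 5.26% to 5.58% in the monolayer libraries. Without Rps14 the ratio was 1.37 to 1.40 in SI tissue and 1.43 to 1.45 in SI monolayers, and in the LI it was 1.36 to 1.39 for tissue and 1.48 to 1.50 for monolayers, again without overlap within a region.

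**Figure D1:**
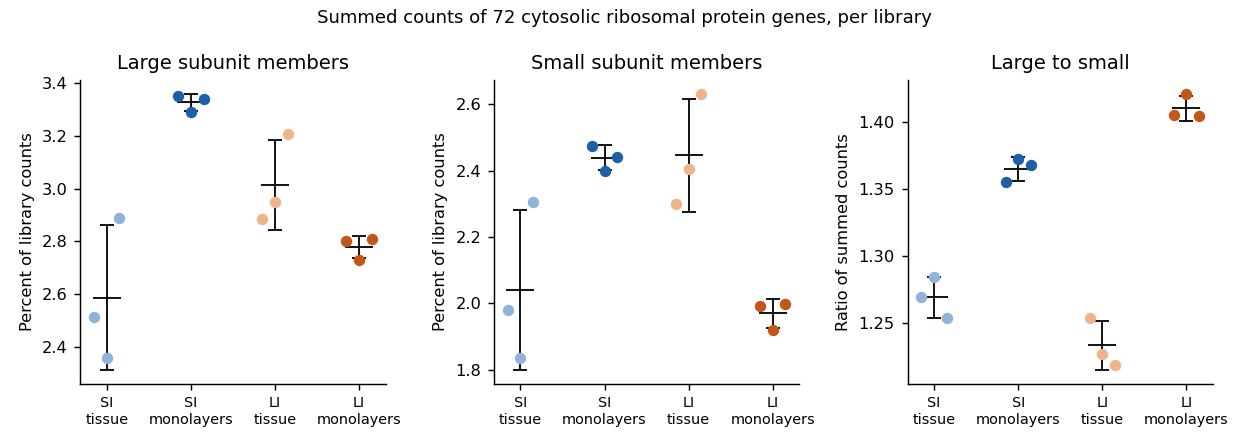
Percent of each library's counts that fell on the 43 large subunit genes (left) and the 29 small subunit genes (middle), and the ratio of the sums (right), for the 4 groups; points are libraries, and bars show mean ± SD of 3, on axes that do not start at 0. The ratio is 1.22 to 1.28 in the 6 tissue libraries and 1.36 to 1.42 in the 6 monolayer libraries.

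The first question was how the members changed when SI crypts were grown as monolayers. In edgeR's quasi-likelihood test (adjusted p under 0.05 over all 19581 genes tested), 49 members were higher and 2 lower in SI monolayers than in SI tissue, and 21 did not pass. Of all genes tested, 59.6% passed, 29.0% higher and 30.6% lower. The changes were small: the median log2 fold change over the members was 0.24, against −0.05 over all genes, and no member reached an absolute log2 fold change of 1, which 26.1% of all genes did. Of the large subunit members 32 of 43 rose and 0 fell, and of the small subunit members 17 of 29 rose and 2 fell. At an unadjusted p under 0.05 in edgeR, 0 large subunit members were lower as well.

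Rpl7, a protein of the large subunit, had 759.6, 700.2 and 849.0 CPM (counts scaled to library size by TMM) in SI tissue and 1259, 1266 and 1292 CPM in SI monolayers. This was the highest fold of any member, a log2 fold change of 0.73 ± 0.07 (SE; edgeR adjusted p = 1.5e-07). Rpl6, also of the large subunit, went from 726.9, 682.9 and 776.0 CPM to 1105, 1112 and 1142 CPM (log2 fold change 0.62 ± 0.06, edgeR adjusted p = 7.11e-08). Rpl29, a large subunit protein also described as a heparin-binding protein, went from 496.1, 459.0 and 524.2 CPM to 724.2, 727.5 and 747.7 CPM (log2 fold change 0.57 ± 0.06, edgeR adjusted p = 4.01e-07). For all 3 genes every monolayer library lay above every tissue library.

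Members with known roles beyond or at the edge of the ribosome were among the called genes. Rps6, the small subunit protein phosphorylated by the S6 kinases downstream of mTORC1, rose from 622.5, 580.1 and 686.9 CPM to 856.5, 857.4 and 864.4 CPM (log2 fold change 0.45 ± 0.06, edgeR adjusted p = 8.52e-06). Rpl10, which joins the large subunit late in its maturation in the cytoplasm, rose by 0.50 ± 0.05 on the log2 scale, Rps27a, made as a fusion with ubiquitin, by 0.40 ± 0.09, and the X-linked Rps4x by 0.39 ± 0.06. Rpl5 and Rpl11, which with 5S ribosomal RNA can bind Mdm2, had log2 fold changes of 0.15 ± 0.06 (edgeR adjusted p = 0.0428) and 0.13 ± 0.08 (edgeR adjusted p = 0.167). The call of Rpl5 was lost under other scalings, with an adjusted p of 0.107 with relative log expression size factors.

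The 2 members that fell both belong to the small subunit. Rps14, part of the platform of the small subunit, had 1705, 1528 and 1967 CPM in SI tissue and 1350, 1283 and 1291 CPM in SI monolayers (log2 fold change −0.41 ± 0.08, edgeR adjusted p = 0.000551). Rps27, a zinc-binding protein of the small subunit, had 417.2, 374.3 and 451.8 CPM in tissue and 353.6, 323.2 and 353.3 CPM in monolayers (log2 fold change −0.27 ± 0.09, edgeR adjusted p = 0.0237). The libraries did not overlap for either gene, but the call of Rps27 was lost when single libraries were left out, with adjusted p up to 0.136 without replicate 2 of SI monolayers, and without a filter on low counts (adjusted p = 0.0585).

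The same comparison in the LI gave a different balance. In LI monolayers against LI tissue, 9 members were higher and 26 lower, and 37 did not pass. Of all genes tested 68.7% passed, 32.1% higher and 36.6% lower. The median log2 fold change was −0.13 over the members and −0.05 over all genes. Of the large subunit members 7 rose and 12 fell, and of the small subunit members 2 rose and 14 fell. The split moved with the scaling: it was 5 higher and 46 lower with upper quartile scaling, which moved the median of all genes to −0.17 and that of the members to −0.24. The split was 8 and 35 with relative log expression size factors. Without replicate 3 of LI tissue it was 16 higher and 19 lower, and the median was −0.05 over the members and −0.06 over all genes, so that the lower median of the members rested on that library.

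Rps14 fell the most, from 2201, 2359 and 2669 CPM in LI tissue to 1053, 1020 and 1087 CPM in LI monolayers (log2 fold change −1.19 ± 0.08, edgeR adjusted p = 3.44e-09). It was the member that passed an absolute log2 fold change of 1 in this comparison, as did 38.0% of all genes. Rps27 fell from 484.5, 542.1 and 643.7 CPM to 318.3, 280.3 and 301.0 CPM (log2 fold change −0.89 ± 0.10, edgeR adjusted p = 1.06e-06). Rpl9, a large subunit protein near the base of the stalk, fell from 1023, 1126 and 1327 CPM to 667.8, 675.6 and 687.4 CPM (log2 fold change −0.78 ± 0.09, edgeR adjusted p = 2.08e-06). For these genes the lowest tissue library was above the highest monolayer library.

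Other small subunit members fell as well. Rps21 fell from 395.6, 474.3 and 541.1 CPM to 290.5, 273.1 and 283.0 CPM (log2 fold change −0.74 ± 0.11), and Rps7, which can also bind Mdm2, from 1269, 1342 and 1478 CPM to 864.9, 793.4 and 868.7 CPM (log2 fold change −0.69 ± 0.07). Rps3, a protein at the entry channel for messenger RNA, had a log2 fold change of −0.45 ± 0.06. All 3 passed the edgeR test, with adjusted p between 1.56e-07 and 5.53e-05, while in SI monolayers against SI tissue none of the 3 passed (log2 fold changes of −0.18, −0.08 and 0.08).

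Rpl7, Rpl6 and Rpl29, which rose most in SI monolayers, also rose in LI monolayers. Other members with large rises in the SI did not. In the LI, Rpl10 had a log2 fold change of −0.10 (not called) and Rpl27 one of −0.14 (called lower). Rpl6 went from 696.5, 708.7 and 757.0 CPM to 944.4, 930.1 and 985.1 CPM (log2 fold change 0.40 ± 0.06, edgeR adjusted p = 6.68e-06), and Rpl7 from 785.1, 831.4 and 919.9 CPM to 1086, 1112 and 1128 CPM (log2 fold change 0.39 ± 0.07, edgeR adjusted p = 9.42e-05). Rpl4, which lines part of the peptide exit tunnel, rose by 0.36 ± 0.06 and Rpl29 by 0.32 ± 0.06 on the log2 scale. Rps2, a small subunit protein near the entry of the messenger RNA, had 1925, 2023 and 2190 CPM in tissue and 2276, 2262 and 2399 CPM in monolayers (log2 fold change 0.18 ± 0.06, edgeR adjusted p = 0.0163).

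**Figure D2:**
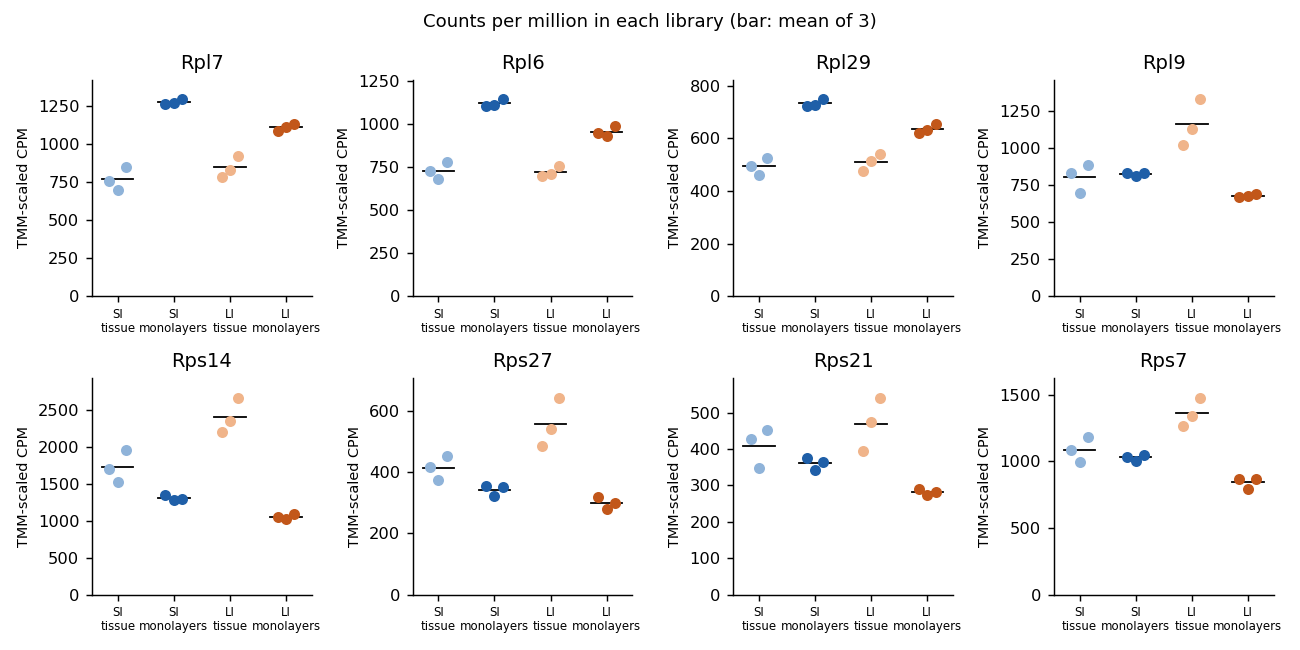
TMM-scaled CPM of 8 members in each of the 12 libraries, with axes from 0; points are libraries and bars are the means of 3. Rpl7, Rpl6 and Rpl29 are higher in monolayers than in tissue in both regions, whereas Rps14 falls from 2201 to 2669 CPM in LI tissue to 1020 to 1087 CPM in LI monolayers.

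Set side by side, the calls of the 2 regions sorted the members into 6 classes. Higher in monolayers in both regions were 9 members (Rpl4, Rpl6, Rpl7, Rpl14, Rpl23, Rpl29, Rpl38, Rps2 and Rps13). Lower in both were Rps14 and Rps27. Higher in SI monolayers and lower in LI monolayers were 9 members (Rpl3, Rpl7a, Rpl10a, Rpl27, Rpl35, Rps15, Rps16, Rps19 and Rps28), 31 were called only in the SI, all higher, and 15 only in the LI, all lower. Of all genes tested, 21.6% were higher in both, 22.2% lower in both, 2.95% higher in the SI and lower in the LI, 4.47% called in the SI alone and higher, and 11.5% called in the LI alone and lower, against 12.5%, 2.78%, 12.5%, 43.1% and 20.8% of the members. The remaining 6 (Rpl13a, Rpl22, Rpl24, Rpl31, Rps10 and Rps23) passed in neither. These classes state where each call fell, and the difference between regions was tested by the interaction given below.

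The order of the changes was alike in both regions, although their level differed. These 2 comparisons share no library. Across all 72 members, Pearson's r between the log2 fold changes in the SI and in the LI was 0.48 and Spearman's rho 0.76. Across the 29 small subunit members r was 0.94 and rho 0.89, and across the 43 large subunit members r was 0.13 and rho 0.68. Rpl24, with 237 counts over all libraries, lay far from the rest. Across the 69 members with a mean of at least 100 CPM, a limit set after the values were seen, r was 0.89 and rho 0.84. Genes are not independent replicates, and the points share libraries, so these values are a description.

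**Figure D3:**
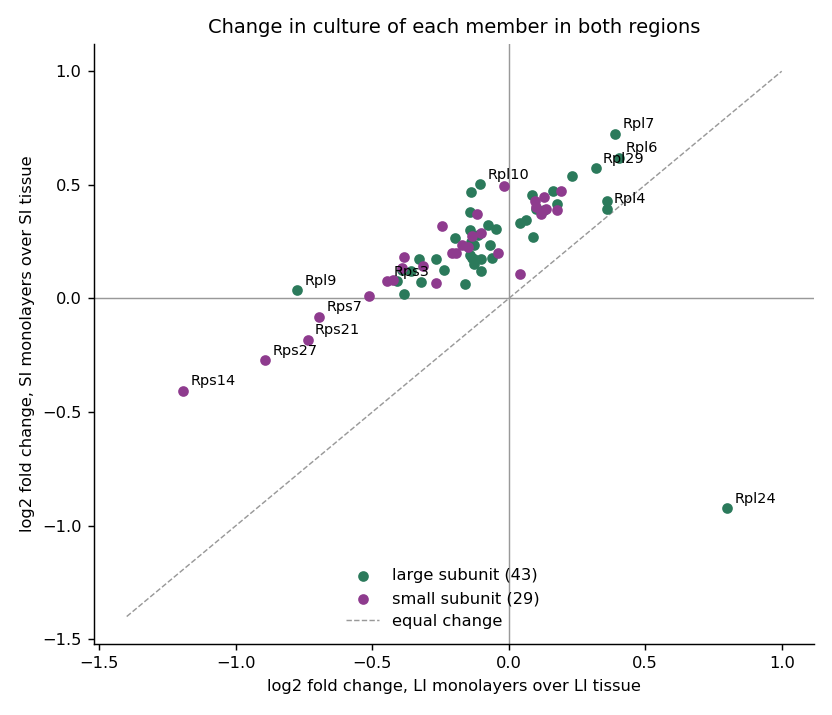
log2 fold change of each of the 72 members in monolayers over tissue, in the LI (horizontal) and the SI (vertical); green points are large subunit and purple points small subunit genes, and the dashed line marks equal change. The points run parallel to the line and above it, from Rps14 (−1.19 in the LI, −0.41 in the SI) to Rpl7 (0.39 and 0.73), with Rpl24 apart below it.

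The interaction compares the change in SI monolayers with the change in LI monolayers, each against its own tissue. It was positive for 56 members and negative for 1, and 15 did not pass the edgeR test. Of all genes tested 46.3% passed, 23.3% positive and 23.0% negative. The median over the members was 0.37 on the log2 scale, against 0.00 over all genes. It was positive for 33 of 43 large and 23 of 29 small subunit members. The highest values belonged to Rpl9 (0.81 ± 0.13, edgeR adjusted p = 0.000112), Rps14 (0.79 ± 0.12, edgeR adjusted p = 5.4e-05) and Rps27 (0.62 ± 0.13, edgeR adjusted p = 0.00167).

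Among members that rose in both regions, the interaction was 0.33 ± 0.10 for Rpl7 (edgeR adjusted p = 0.00994), 0.22 ± 0.08 for Rpl6 (edgeR adjusted p = 0.0323), 0.21 ± 0.09 for Rps2 (edgeR adjusted p = 0.0513) and 0.04 ± 0.09 for Rpl4 (edgeR adjusted p = 0.766). After Rpl24, the lowest values were those of Rpl4 and Rps23 (0.07 ± 0.10, edgeR adjusted p = 0.646). The 1 negative call was Rpl24 (−1.72 ± 0.67, edgeR adjusted p = 0.0472), which had 9 to 33 counts per library. It was not called without the filter on low counts (adjusted p = 0.0938), with upper quartile scaling (adjusted p = 0.059), or in most fits without 1 library.

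In tissue, most of the members that passed were lower in the SI than in the LI, and 42 did not pass. Of the 72, 29 were lower and 1 higher in SI tissue than in LI tissue, against 24.7% lower and 29.2% higher among all genes tested (53.9% in all). The median log2 difference was −0.13 over the members and 0.06 over all genes. Large subunit members gave 1 higher and 16 lower, and small subunit members 0 higher and 13 lower (0 higher also at an unadjusted p under 0.05 in edgeR). The count depended on single libraries and on the scaling: 16 members were lower without replicate 2 of SI tissue and 16 without replicate 3 of LI tissue, where the median over the members was −0.07 in each case, and with upper quartile scaling 45 were lower and 0 higher.

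Rpl9 had the largest called difference in tissue, with 829.7, 698.1 and 887.1 CPM in the SI and 1023, 1126 and 1327 CPM in the LI (log2 difference −0.53 ± 0.09, edgeR adjusted p = 0.000169). Rps14 followed with −0.48 ± 0.08 (edgeR adjusted p = 0.000159) and Rps27 with −0.43 ± 0.09 (edgeR adjusted p = 0.00161). For these 3 the libraries of the groups did not overlap. Rpl4 was the member called higher in SI tissue (log2 difference 0.21 ± 0.06, edgeR adjusted p = 0.00872), with 1362, 1267 and 1476 CPM against 1132, 1150 and 1277 CPM. Rps12 (0.15 ± 0.08, edgeR adjusted p = 0.116) and Rpl24 (0.79 ± 0.47, edgeR adjusted p = 0.179) did not pass. The libraries of Rpl4 overlapped, and it was not called with upper quartile scaling (adjusted p = 0.0689) or with these 2 groups alone (adjusted p = 0.194).

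In monolayers the calls went the opposite way. In SI monolayers 49 members were higher than in LI monolayers and 0 were lower, against 27.0% higher and 24.9% lower among all genes tested (51.8% in all). Of the large subunit members 28 were higher, and of the small subunit members 21. The median log2 difference was 0.23 over the members and 0.02 over all genes. DESeq2 also called 49 higher and 0 lower. At an unadjusted p under 0.05 in edgeR, 0 members were lower in SI monolayers.

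Rps12 had the largest called difference in monolayers, with 982.8, 958.1 and 1028 CPM in the SI and 702.2, 689.0 and 737.7 CPM in the LI (log2 difference 0.48 ± 0.08, edgeR adjusted p = 6.01e-05). Rpl27a followed with 0.38 ± 0.09 (edgeR adjusted p = 0.00167). The lowest values were those of Rpl24 (−0.94 ± 0.48, edgeR adjusted p = 0.117) and Rpl37a (0.10 ± 0.09, edgeR adjusted p = 0.364). Lower in SI than LI tissue and higher in SI than LI monolayers were 17 members (23.6%, against 4.54% of all genes tested), among them Rpl3, Rpl9, Rpl10, Rps3, Rps7 and Rps14.

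**Figure D4:**
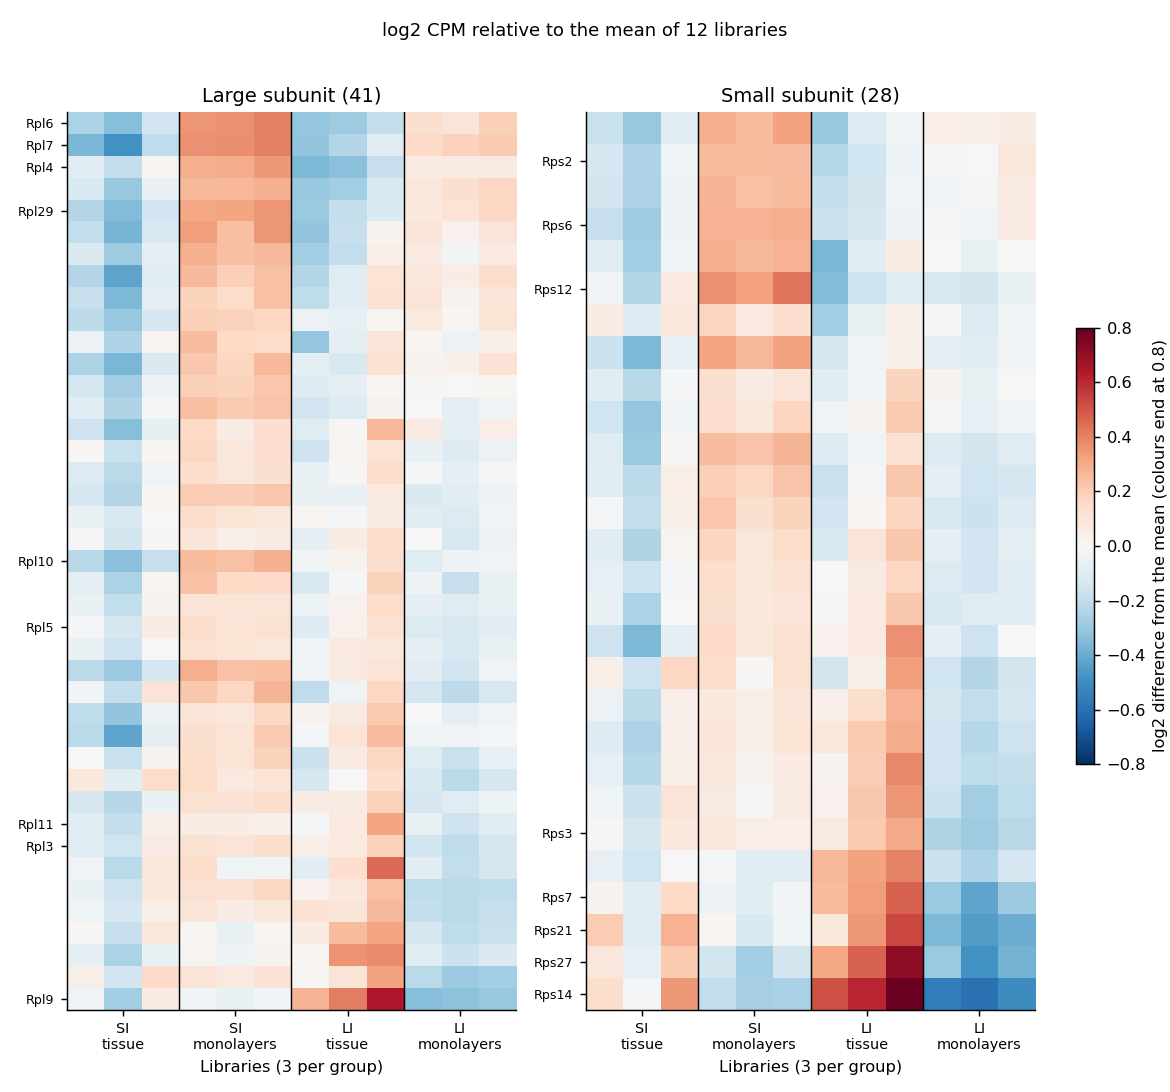
log2 CPM of 41 large and 28 small subunit genes in each library, minus the mean of the gene over the 12 libraries; genes are ordered by their change in LI monolayers, some of those described are labelled, red is above and blue below the mean, and Rpl24, Rps10 and Rpl13a, which have few counts, are left out. The SI monolayer libraries are red for most genes, and the bottom rows, down to Rps14 at −1.19 in LI monolayers against LI tissue, are red in LI tissue and blue in LI monolayers.

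Per length, the members differed widely in level. These levels depend on a single annotated transcript per gene, with 597 bases for Rps14 but 3706 for Rps20 and 2045 for Rpl5. Whether these transcripts are the ones present was not tested. Rps14 had the highest mean over the 12 libraries, 2724 CPM per kilobase of its annotated transcript, followed by Rpl41, whose product is the shortest protein of the ribosome, with 2634, and Rps2 with 2279. Rps14 stood at 4036 ± 399.1 CPM per kilobase (SD, n = 3) in LI tissue and at 1765 ± 56.8 in LI monolayers, where Rpl41 (2386 ± 65.4) and Rps2 (2317 ± 75.6) lay above it. In SI tissue the order of Rps14 (2903 ± 369.4) and Rpl41 (2401 ± 178.5) was the same as in LI tissue. The median over the small subunit members was above that over the large subunit members in every group, for example 924.4 against 792.0 CPM per kilobase in SI tissue and 852.2 against 803.7 in LI monolayers. The order of the 72 members was alike between groups, with Spearman's rho between 0.906 and 0.988.

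The lowest levels belonged to 3 members with few counts, which were singled out after their values were seen. Rpl24 had a mean of 0.292 CPM, Rps10 1.997 CPM and Rpl13a 29.6 CPM, while the other 69 members had 197.7 to 2275 CPM. In the GENCODE vM21 annotation a second gene lies on the same strand over 47.0% of the exon bases of Rpl24, 20.6% of those of Rps10 and 29.4% of those of Rpl13a, and no other member had more than 10%. All 3 of these second genes had 0 counts. Whether reads shared between genes were left uncounted was not tested, and the levels of these members are uncertain. Pseudogenes named after a member numbered 286, for 56 members. Their counts were at most 8.33% of those of the member among the 69 (median 0.611%), whereas those named after Rps10 had 765% of its counts.

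No measured property of the genes was closely related to the changes. Across the 69 members, Spearman's rho of the log2 fold changes with transcript length, coding length, GC content, number of named pseudogenes and mean CPM lay between −0.25 and 0.24 in the 5 comparisons. Among the members with a promoter entry, the 28 with a run of at least 5 C or T near the start had a median log2 fold change of 0.26 in SI monolayers and −0.12 in LI monolayers, and the 25 with a shorter run 0.20 and −0.14. Rps27 and Rps6, which have long runs, and Rpl9, which has a short one, are in the sequences printed above, with log2 fold changes in the LI of −0.89 for Rps27 and −0.78 for Rpl9, which passed, and 0.13 for Rps6, which did not (edgeR adjusted p = 0.072).

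The naming rule does not take in every ribosomal protein. Of 7 genes for ribosomal proteins with other names, 4 were higher and 1 lower in SI monolayers than in SI tissue, and 4 were lower in LI monolayers than in LI tissue. Rplp0, the base of the stalk, had a log2 fold change of 0.06 ± 0.06 in the SI (edgeR adjusted p = 0.408) and −0.64 ± 0.06 in the LI (edgeR adjusted p = 6.25e-08), with an interaction of 0.70 ± 0.08. The other stalk proteins, Rplp1 and Rplp2, rose by 0.30 ± 0.07 and 0.27 ± 0.07 in the SI and had log2 fold changes of 0.10 ± 0.07 and −0.04 ± 0.07 in the LI. Rpsa, also known as a laminin receptor, and Rps3a1 rose by 0.23 ± 0.06 and 0.23 ± 0.07 in the SI and fell by 0.14 and 0.16 on the log2 scale in the LI. Without replicate 3 of LI tissue the falls of both were not called, that of Rpsa was also lost without replicate 1 of SI tissue (adjusted p = 0.0526), and with the TMM factors of all 12 libraries kept they were also lost without most single monolayer libraries. Fau, a fusion of a ubiquitin-like protein and the small subunit protein S30, fell in both regions (−0.22 ± 0.05 and −0.61 ± 0.05).

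Among genes named as paralogs of members, Rpl7l1 rose in SI and LI monolayers (0.66 ± 0.06 and 0.72 ± 0.06) and Rps27l, unlike Rps27, rose in both as well (0.45 ± 0.08 and 0.30 ± 0.08). Rps27l had 156.3 to 172.8 CPM in SI tissue and 214.8 to 237.2 CPM in SI monolayers. Rpl22l1 rose in the SI (0.58 ± 0.09) and had a log2 fold change of 0.11 ± 0.09 in the LI. Rps27rt, a near copy of Rps27 with 8.09 to 15.9 CPM, fell in both regions, and Rps4l, with 24.0 to 87.2 CPM, and Rpl36al, with 0.471 to 1.35 CPM, fell in the LI. Leaving out replicate 3 of LI monolayers ended the LI calls of Rps27l (adjusted p = 0.0846) and Rpl36al (adjusted p = 0.0696), and leaving out replicate 1 of SI tissue or replicate 2 or 3 of SI monolayers ended the SI call of Rps27rt (adjusted p up to 0.103). The call of Rpl36al was also lost without replicate 2 of LI tissue or replicate 1 of LI monolayers. Reads of near copies could be split between a paralog and its member. Rpl3l, Rpl10l and Rpl39l had 16, 0 and 2 counts over the 12 libraries and were not tested.

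Genes for building ribosomes had larger median changes than the members. Of 49 tested ribosome assembly factors, 49 were higher in SI monolayers (median log2 fold change 1.03) and 47 were higher and 2 lower in LI monolayers (median 1.44), against medians of 0.24 and −0.13 for the ribosomal protein genes. The SI call of Tsr2, a chaperone of Rps26, was lost with upper quartile scaling, relative log expression size factors, DESeq2 and at least 10 counts in every library (adjusted p between 0.0649 and 0.102), and without replicate 1 or 3 of SI tissue or replicate 2 of SI monolayers. Utp4, of the small subunit processome, rose by 1.65 ± 0.08 and 2.30 ± 0.08, Bysl by 1.53 ± 0.06 and 1.44 ± 0.06, and the nucleolar protein Mybbp1a by 1.41 ± 0.06 and 2.13 ± 0.06. The 2 that fell in the LI were Tsr2 (−0.40 ± 0.08) and Utp20 (−0.15 ± 0.06), and the latter was not called without replicate 3 of LI tissue. The interaction was positive for 2 and negative for 30 of these 49, with a median of −0.39, where that of the ribosomal protein genes was 0.37.

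Genes for the synthesis of ribosomal RNA, of which 19 of 23 listed symbols were found, gave 16 higher and 1 lower in SI monolayers and 13 higher and 1 lower in LI monolayers. Polr1a, the largest subunit of RNA polymerase I, rose by 1.14 ± 0.06 and 1.73 ± 0.06, and Nolc1, a nucleolar phosphoprotein, by 1.37 ± 0.06 and 1.88 ± 0.06. Taf1d, of the promoter selectivity factor of RNA polymerase I, fell in both (−0.37 ± 0.10 and −0.61 ± 0.10).

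Translation factors also rose for the most part. Of 35 initiation factor genes, 31 were higher and 1 lower in SI monolayers (median 0.65), and 27 were higher and 5 lower in LI monolayers (median 0.74). Eif2s2 rose by 1.50 ± 0.07 in the SI and Eif3b by 1.70 ± 0.05 in the LI, while Eif4a2 fell in both (−0.61 ± 0.07 and −1.09 ± 0.07). Of 13 elongation, termination and recycling factors, 9 were higher and 1 lower in the SI and 9 higher and 2 lower in the LI. The 1 lower in the SI was Eef1a2, with means of 5.81 CPM in tissue and 2.79 CPM in monolayers, and its call was lost without a filter on low counts (adjusted p = 0.0783), with the replicate block (adjusted p = 0.0506), and without replicate 2 of SI tissue or any 1 library of SI monolayers. Abce1, which splits ribosomes after termination, rose by 1.18 ± 0.05 and 1.67 ± 0.05. Eef1a1, which brings aminoacyl-tRNA to the ribosome and whose transcript carries a TOP motif, rose in the SI (0.25 ± 0.05) and fell in the LI (−0.20 ± 0.05), as 9 of the members did.

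Other genes whose transcripts are known to carry TOP motifs, 15 in all and sharing some genes with the factors above, gave 10 higher and 0 lower in SI monolayers and 8 higher and 4 lower in LI monolayers. Rack1, a scaffold on the small subunit, had a log2 fold change of −0.03 ± 0.07 in the SI (edgeR adjusted p = 0.737) and fell in the LI (−0.73 ± 0.07, edgeR adjusted p = 2.36e-07). Hnrnpa1 rose by 0.48 ± 0.05 and 0.81 ± 0.05. The 77 tested genes of mitochondrial ribosomal proteins, which serve a different ribosome, gave 17 higher and 33 lower in the SI (median −0.12) and 9 higher and 48 lower in the LI (median −0.33).

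**Figure D5:**
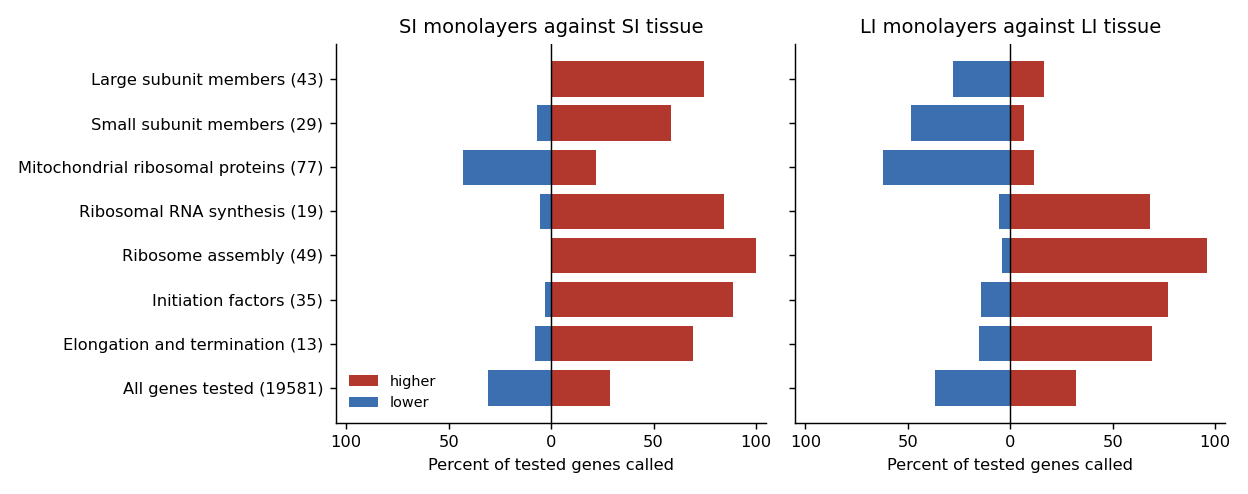
Percent of the tested genes of each list that edgeR called higher (red, to the right) or lower (blue, to the left) in monolayers than in tissue, in the SI (left panel) and the LI (right panel), with the number of tested genes in brackets. The bars of ribosome assembly reach 49 of 49 higher in the SI and 47 in the LI, while those of the small subunit members go from 17 higher and 2 lower to 2 higher and 14 lower.

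Regulators of growth were mixed, with 10 of 24 higher and 10 lower in the SI and 13 higher and 7 lower in the LI. Myc, a transcription factor that drives ribosome production, had 35.0 to 42.3 CPM in SI tissue and 155.5 to 159.8 CPM in SI monolayers (log2 fold change 2.02 ± 0.07), and 23.1 to 27.4 CPM in LI tissue and 218.6 to 228.3 CPM in LI monolayers (3.16 ± 0.07). Eif4ebp1, a translational repressor inhibited by mTORC1, rose by 2.78 ± 0.12 and 3.06 ± 0.12. Ddit4, an inhibitor of mTORC1, rose by 2.47 ± 0.07 and 0.40 ± 0.07, and the Myc antagonist Mxi1 fell in both (−1.20 ± 0.12 and −2.27 ± 0.12).

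The make-up of the libraries moved with the groups too. The library totals were 59016196 to 76216530 counts, so that 3 counts are worth 0.0394 to 0.0508 CPM. Mitochondrially encoded genes took 4.56% to 9.16% of the counts of SI tissue, 2.25% to 2.59% of those of LI tissue, 0.472% to 0.559% for SI monolayers and 0.704% to 0.750% for LI monolayers. Markers were summed over lists of 12 genes, in CPM, and are given with the SI before the LI and, within each, tissue before monolayers. Proliferation markers were 1072 to 1153, 1505 to 1531, 842.3 to 940.9 and 1319 to 1410, and of the 12, 11 rose in the SI and 9 in the LI. Immune markers were 464.0 to 558.8, 54.6 to 61.0, 50.4 to 61.3 and 4.06 to 5.79, and 11 fell in the SI and 12 in the LI. Lyz2, which is on both the immune and the Paneth list, had means of 44.9 CPM in SI tissue and 41.3 CPM in SI monolayers. Most of the immune sum of SI monolayers was thus Lyz2. No immune marker had a mean of 0 in any group. Goblet markers were 6503 to 11121, 5746 to 5923, 18680 to 23732 and 1911 to 2089. Of these, 3 rose and 9 fell in the SI, and 1 rose and 11 fell in the LI. Paneth markers were 5114 to 24987, 7835 to 8494, 477.7 to 1013 and 71.8 to 92.95. Here 0 rose and 3 fell in the SI, and 0 rose and 4 fell in the LI. Ang4 had a mean of 580.4 CPM in LI tissue and 8.61 CPM in LI monolayers, while Lyz1 had 14.6 and 27.8 CPM. The paper states that LI monolayers lack Paneth cells. Enterocyte markers were 13581 to 20787, 4902 to 5141, 1935 to 4427 and 217.7 to 288.9. Among them 0 rose and 8 fell in the SI, and 0 rose and 4 fell in the LI. The other 8 were not called in the LI, where the median log2 fold change over the 12 was 0.59. Car1 and Car4 went from means of 1529 and 849.2 CPM in LI tissue to 41.8 and 13.1 CPM in LI monolayers. Stem cell markers were 1678 to 2160, 510.9 to 529.0, 584.1 to 626.0 and 451.9 to 483.7. Of the 12 stem cell markers, 4 rose and 7 fell in the SI and 1 rose and 8 fell in the LI. Olfm4 alone went from a mean of 1252 CPM in SI tissue to 18.4 CPM in SI monolayers, while Sox9, Ephb3, Rnf43 and Znrf3 rose there. Epithelial markers were 19103 to 21088, 33227 to 34094, 30429 to 30804 and 41312 to 42421, higher in monolayers than in tissue without overlap, although 5 rose and 6 fell in the SI and 5 rose and 5 fell in the LI. Mesenchymal markers, of which Cdh5 was at 0 in SI monolayers, were 25.6 to 90.2 in all libraries. The part of these shifts in the changes of the ribosomal protein genes was not tested.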

How the data were processed

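Paired-end RNA sequencing reads were aligned by the authors with STAR 2.7.9a to GRCm38 and counted on GENCODE genes with featureCounts 2.0.2. The deposited counts are whole numbers per gene without normalization, with 0 columns left unmapped. Whether mates, strand and reads of several genes or places were counted is not given in the sources used here. A deposited table scaled with DESeq2 size factors was not used. Symbols were paired with 55141 of 55487 gene identifiers, and all 72 members were found in GENCODE vM21, which has the same build as the annotation of the authors and gave positions and lengths. Each length is that of the shortest coding transcript with the principal and consensus coding tags, a rule settled after lengths were seen.

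Genes were kept by filterByExpr (19581), scaled by TMM and tested in edgeR 4.0.16 (R 4.3.3) with robust quasi-likelihood fits in 1 model of the 4 group means. Benjamini-Hochberg adjustment ran over all genes tested, and a gene was called with an adjusted p under 0.05. CPM are library-scaled counts after TMM, folds are log2 fold changes, and errors are SE (absolute log2 fold change over the root of F) or SD. The 3 counts taken as the limit of detection cover counting error only. The fits were tested on simulated data with changes set in SI monolayers. Of the changed genes, 18% were called at a true log2 fold change of 0.3, 60% at 0.5, 86% at 1 and 96% at 2. Of all calls, 3.7% were false. Small changes were thus often missed there. Correlations carry no p-value.

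The members, gene lists and comparisons were chosen with earlier results of these data known. Named were, for each comparison, the 3 members with the highest and the 3 with the lowest change, the 3 highest and 3 lowest levels per length, Rpl5, Rpl11, Rps6, Rps27a, Rps4x and Rpl10, all ribosomal proteins outside the rule and paralogs, and the 2 extreme called genes of each list in each direction and region. Some genes that the rule takes in are not reported here. Other members were named after their values were seen, as were the promoter window, nearest to the principal transcript, and its 8 motif searches. Alternatives were DESeq2 1.42.0, upper quartile and relative log expression scaling, no filter, at least 10 counts in every library, mitochondrial genes left out, counts of named pseudogenes added, a replicate block, fits of only the groups compared, a minimum log2 fold change of 1, and each library left out. Fits scaled on genes other than the members, with the TMM factors of all 12 libraries kept (with pseudogene counts added or a library left out), and with the TMM reference library kept were chosen after seeing the data. So was a setting that dropped Rpl24, Rps10 and Rpl13a from the main results without a new fit.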

Additional observations from a re-analysis of the deposited data

Results flagged for a closer look

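The change in SI monolayers differed from that in LI monolayers for 56 members in the positive and 1 in the negative direction, by the interaction term in edgeR (percent of all genes called, 23.3 and 23.0). Among the named members the interaction was 0.81 for Rpl9, 0.79 for Rps14 and 0.62 for Rps27 on the log2 scale. Rps14 and Rps27 were lower in monolayers in both regions, with the larger difference in the LI, while Rpl9 was called in the LI alone. For Rpl24 it was −1.72, on 237 counts over the 12 libraries. Groups of 3 libraries were not tested for outlying libraries.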

How the results depend on the processing

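Relative to the median of all genes, the median of the members stayed between 0.19 and 0.29 in SI monolayers against SI tissue and between 0.20 and 0.22 in SI against LI monolayers. It stayed between −0.18 and −0.07 in LI monolayers against LI tissue, between −0.20 and −0.16 in SI against LI tissue and between 0.36 and 0.38 in the interaction, over the alternatives that leave out no library. Without 1 library these ranges were 0.22 to 0.34, 0.19 to 0.23, −0.12 to 0.01, −0.24 to −0.13 and 0.30 to 0.42, and the LI value was above 0 without replicate 3 of LI tissue alone.

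Counts that moved by over 1.5 times were as follows, given as higher and lower. LI monolayers against LI tissue gave 5 and 46 with upper quartile scaling, and 5 and 44 each with at least 10 counts in every library, with mitochondrial genes left out and with pseudogene counts added. In these last 3 settings TMM also took another library as its reference. With the reference kept, a choice made after seeing the data, the counts were 9 and 26 with mitochondrial genes left out and 5 and 43 with at least 10 counts in every library. SI against LI tissue gave 0 and 45 with upper quartile scaling, 0 and 47 with pseudogene counts added, and 0 higher with only the groups compared. With pseudogene counts added and the TMM factors of the deposited counts kept, the counts were 9 and 27 (LI) and 1 and 29 (tissue). SI monolayers against SI tissue gave 1 lower without a filter. With a minimum log2 fold change of 1, counts were 0 and 0 in SI monolayers against SI tissue, 0 and 1 in LI monolayers against LI tissue, 0 and 0 in SI against LI tissue, 0 higher in SI against LI monolayers, and 0 higher in the interaction. The 1 negative interaction became 0 with upper quartile scaling, no filter, at least 10 counts in every library (with either reference), mitochondrial genes left out, pseudogene counts added, or Rpl24, Rps10 and Rpl13a left out.

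The replicate numbers showed no clear pairing of the libraries (correlations of deviations between −0.05 and 0.06). This check cannot exclude shared animals, because groups held 3 libraries and the wells of monolayers were pooled. The replicate block gave 50 and 2, 11 and 28, 1 and 30, 56 and 0, and 61 and 0 in the order of the 5 comparisons. Leaving out 1 library gave 35 to 55 higher and 1 to 3 lower in SI monolayers against SI tissue. The counts were 5 to 16 and 19 to 40 in LI monolayers against LI tissue, and 0 to 3 and 16 to 44 in SI against LI tissue. They were 48 to 59 and 0 in SI against LI monolayers, and 50 to 67 and 0 to 1 in the interaction. Without any 1 monolayer library TMM took another reference library. With the TMM factors of all 12 libraries kept, the LI counts moved by over 1.5 times without replicates 1 (5 higher) and 3 (15 higher) of LI tissue, and those of SI against LI tissue without replicate 2 of SI tissue (17 lower) and replicate 3 of LI tissue (16 lower). With these factors kept, 39 to 59 members were higher in SI against LI monolayers and 48 to 67 in the interaction. The members' share of counts without 1 library was 4.34% to 4.84% (SI tissue), 5.74% to 5.81% (SI monolayers), 5.27% to 5.60% (LI tissue) and 4.72% to 4.80% (LI monolayers). The ratio of the subunits was 1.26 to 1.28, 1.36 to 1.37, 1.22 to 1.24 and 1.41 in the same order. Under the other settings 115 gene results gave 4354 outcomes, of which 4227 kept their call and direction, 127 lost the call and 0 reversed. Leaving out 1 library gave 2654 of those kept and 106 of those lost. Each library was left out under its own and under kept TMM factors, also where it was outside the groups compared. Dropping Rpl24, Rps10 and Rpl13a involved no new fit, so its 114 kept outcomes were fixed in advance. The other causes of these shifts were not tested.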
